A study of Mus musculus with 15 samples.

Results

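Forkhead transcription factors share a winged-helix DNA-binding domain, the forkhead box, and are grouped by letter from A to S. The family was followed here in mouse embryonic stem cells that lack Polycomb group proteins. Its members were taken as the protein-coding genes whose symbol is Fox, a letter from a to s and a number. The rule gave 44 genes in 19 subfamilies, among 38355 genes in the authors' deposited table. It left out 3 non-coding genes with such symbols, Foxd2os, Foxl2os and Foxo6os.

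Cells were grown in 2i medium with LIF, 1 µM of the MEK inhibitor PD0325901 and 3 µM of the GSK3 inhibitor CH99021, and all 15 samples shared this medium. Total RNA was sequenced from 3 samples of each of 5 groups. The line E14TG2a, wild type, is called E14-WT. Ezh2-WT carries floxed Ezh2 alleles (Ezh2 fl/fl) and is labelled wild type. Polycomb repressive complex 2 (PRC2) is without its methyltransferase in Ezh2-KO (Ezh2-/-) and without its subunit Suz12 in Suz12-KO (Suz12-/-). Ring1A+B-DKO (Ring1A-/-;Ring1B-/-) lacks both RING ubiquitin ligases of Polycomb repressive complex 1 (PRC1). Ezh2-KO was compared with Ezh2-WT. Suz12-KO, Ring1A+B-DKO and Ezh2-WT were each compared with E14-WT, so these 3 comparisons share their control samples. The parental lines of Suz12-KO and Ring1A+B-DKO, the way the Ezh2 alleles were deleted and whether a line is a single clone are not known from the sources used here. In the 2 knockouts set against E14-WT, a difference between lines and the effect of the deletion cannot be told apart.

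Every log2 fold change and call below is a value of the authors' deposited table, made with DESeq2, and is written as the named group over its control. The columns against E14-WT were turned, because they hold E14-WT over the named group. A call is the authors' own yes or no mark, whose criteria are not given. In Ring1A+B-DKO the smallest called size was 1.00 on the log2 scale, so smaller members were below any called size. Where no member reached 1, as in the other comparisons, 0 calls may say no more than that. The words rose and fell are kept for called genes. The table holds no value per sample, standard error or p-value, so the spread between replicates and the depth per sample are unknown here, and differences between comparisons could not be tested. In bulk RNA, a change in the number of cells that use a gene and a change per cell cannot be told apart.

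Polycomb complexes keep developmental regulators silent in stem cells. PRC2 methylates lysine 27 of histone H3 and PRC1 ubiquitinates histone H2A, mostly at CpG islands, stretches of DNA rich in CG dinucleotides. Many forkhead genes are lineage regulators of this kind, such as the Foxa pioneer factors of endoderm, Foxe1 of the thyroid and Foxl2 of the ovary. Others act in most cells, such as the FoxO factors downstream of insulin signalling and Foxm1 in cell division. Foxd3 and Foxh1 are known from pluripotent cells and the early embryo.

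The DNA before the start of 5 members is shown in RefSeq's mouse sequence of GRCm38.p6. Foxa2, Foxd2 and Foxf2 are the members with reads in Ring1A+B-DKO and in no other group. Foxd3, which stem cells use, and Foxi1, with no reads in any group, stand beside them. Each run is the 250 bases 5′ of the annotated start, on the gene's strand, with every CG in capitals. The windows are chr2:148046970-148047219 (minus strand) for Foxa2, chr4:114908899-114909148 (minus) for Foxd2, chr13:31625566-31625815 (plus) for Foxf2, chr4:99656049-99656298 (plus) for Foxd3 and chr11:34208090-34208339 (minus) for Foxi1.
Foxa2: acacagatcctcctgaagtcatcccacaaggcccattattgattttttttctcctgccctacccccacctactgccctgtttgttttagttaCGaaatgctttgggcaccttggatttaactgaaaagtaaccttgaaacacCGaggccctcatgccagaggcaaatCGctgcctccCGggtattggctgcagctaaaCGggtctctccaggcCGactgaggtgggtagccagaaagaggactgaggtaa
Foxd2: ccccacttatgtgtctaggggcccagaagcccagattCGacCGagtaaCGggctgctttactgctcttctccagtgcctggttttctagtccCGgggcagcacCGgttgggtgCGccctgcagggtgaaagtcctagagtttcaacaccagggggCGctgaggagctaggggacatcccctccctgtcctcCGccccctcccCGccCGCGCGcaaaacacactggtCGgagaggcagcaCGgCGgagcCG
Foxf2: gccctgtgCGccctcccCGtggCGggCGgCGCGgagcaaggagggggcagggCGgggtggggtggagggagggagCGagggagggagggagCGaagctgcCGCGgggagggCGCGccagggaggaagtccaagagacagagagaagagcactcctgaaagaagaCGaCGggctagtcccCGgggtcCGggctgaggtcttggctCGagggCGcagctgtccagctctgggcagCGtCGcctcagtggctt
Foxd3: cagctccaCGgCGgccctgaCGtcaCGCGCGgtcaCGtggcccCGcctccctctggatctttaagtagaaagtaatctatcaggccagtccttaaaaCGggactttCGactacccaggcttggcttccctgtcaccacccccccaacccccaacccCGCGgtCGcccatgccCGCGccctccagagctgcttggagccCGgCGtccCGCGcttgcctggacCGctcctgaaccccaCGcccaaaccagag
Foxi1: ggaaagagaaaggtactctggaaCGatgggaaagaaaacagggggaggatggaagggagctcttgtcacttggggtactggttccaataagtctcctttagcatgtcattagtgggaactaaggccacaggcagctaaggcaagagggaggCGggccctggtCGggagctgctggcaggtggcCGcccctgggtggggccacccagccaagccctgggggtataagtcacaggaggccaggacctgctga

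These 250 bases hold 16 CG in Foxd2, 21 in Foxf2 and 21 in Foxd3, and 6 in Foxa2 and 4 in Foxi1. The windows of the 3 members with reads only in Ring1A+B-DKO thus range from 6 to 21 CG. DNA after the start was not counted, so a CpG island there would be missed. A window was found for 28 of the 44 members, before the most upstream RefSeq start of each. Some of these, such as those of Foxa1 and Foxn3, lie inside the gene as annotated by GENCODE. Of these, 19 (67.9%) hold 10 or more CG, beside 38.2% of the 27018 genes with a window. Among the 22 members with a value in at least 1 comparison it was 18 (81.8%), beside 67.9% of such protein-coding genes. Of the 6 members without any value, only Foxd4 did (16.7%), beside 6.42% of protein-coding genes without a value. The forkhead core motif TGTTTAC, searched on both strands, lies in 1 of the 28 windows, that of Foxa1 (3.57%), beside 3.06% of all windows.

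Checks of the series gave the following, per the authors' deposited table. Of the deleted genes, Ring1 fell in Ring1A+B-DKO, at a log2 fold change of -2.03, while Rnf2 (0.17), Suz12 in its knockout (-1.04) and Ezh2 in its own (-0.14) were not called. A single value per gene also covers exons that may remain, so it checks the labels little. All 10 pluripotency markers, Pou5f1, Nanog and Sox2 among them, had values in every comparison. Of these, Klf4 rose in Ring1A+B-DKO, at 1.04, and Nanog fell in Ezh2-WT over E14-WT, at -1.15. In Ring1A+B-DKO, endoderm markers had 4 of 10 called higher (Gata6 2.69, Gata4 2.39, Col4a1 2.00 and Dab2 1.87), with all 9 values between 0.42 and 2.69 and none for Ttr. Trophoblast markers had 2 of 9 called higher (Krt18 3.10 and Krt8 2.62), with all 9 between 0.14 and 3.10. Fibroblast markers had 1 of 10 called higher (Thy1 1.66), with 8 values between -0.56 and 1.66. Neural markers had 3 of 8 called lower (Olig2 -2.37, Tubb3 -2.11 and Stmn2 -1.86) and a median of -0.01. Of these 8 genes, 4 stood above 0, with Pax6 (1.47, without reads in E14-WT) and Nes (1.29) highest. In the 3 other comparisons the only gene called on the endoderm, trophoblast, fibroblast and neural lists was Lamb1 in Suz12-KO, at -1.80. The part of these other cell types in the forkhead values was not tested.

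The first question was which forkhead genes were transcribed at all. Where the authors' deposited table has no value for a gene, both groups of that comparison were taken to have no reads of it. Of the 44 members, 26 had a value in all 4 comparisons and 10 in some of them. The other 8 had none (18.2%, beside 25.3% of protein-coding genes). These were Foxb1 and Foxb2 of the developing brain, Foxd4, the lens factor Foxe3, Foxi1 of the inner ear and kidney, Foxi2, the gut mesenchyme factor Foxl1 and Foxp3, the master regulator of regulatory T cells. Ring1A+B-DKO over E14-WT had the fewest members without a value, 10, beside 13 between the wild-type lines, 14 in Ezh2-KO and 15 in Suz12-KO. The same comparison had the fewest missing over all protein-coding genes, 27.8%, beside 31.8% between the wild-type lines, 33.7% in Ezh2-KO and 32.6% in Suz12-KO, and the members' shares were 22.7%, 29.5%, 31.8% and 34.1% in that order.

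Members with some values show in which groups reads appeared, and 9 are described. Foxa2 (ENSMUSG00000037025, chromosome 2, 148042877 to 148046969 in GRCm38), a pioneer factor of endoderm and floor plate, had reads in Ring1A+B-DKO and in none of the 4 other groups. The same was true of Foxd2 (ENSMUSG00000055210, chromosome 4, 114906282 to 114908873) and of the gut mesenchyme factor Foxf2 (ENSMUSG00000038402, chromosome 13, 31625816 to 31631403). This pattern was found for 6.82% of members and 3.81% of protein-coding genes. Foxq1 had reads in Ring1A+B-DKO and Suz12-KO, and none in E14-WT, Ezh2-WT or Ezh2-KO. Foxj1, the regulator of motile cilia, and the ovarian factor Foxl2 had reads in Ring1A+B-DKO and Ezh2-WT, and none in E14-WT or Suz12-KO. Foxp2, known for its part in speech circuits, and Foxs1 had reads in Ezh2-WT, and none in E14-WT, Suz12-KO or Ring1A+B-DKO. Foxn1, the thymic epithelium factor, had reads in E14-WT and none in Ezh2-WT or Ezh2-KO. Ring1A+B-DKO therefore had reads for 6 of these 9. It was compared with E14-WT only, so reads could be shown there only for genes without reads in E14-WT. That held for 7 of the 34 members with a value there, beside 1388 of 15294 protein-coding genes. Depth per group is unknown, and a deeper group would show more such genes, so its part in this count was not tested.

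**Figure D1:**
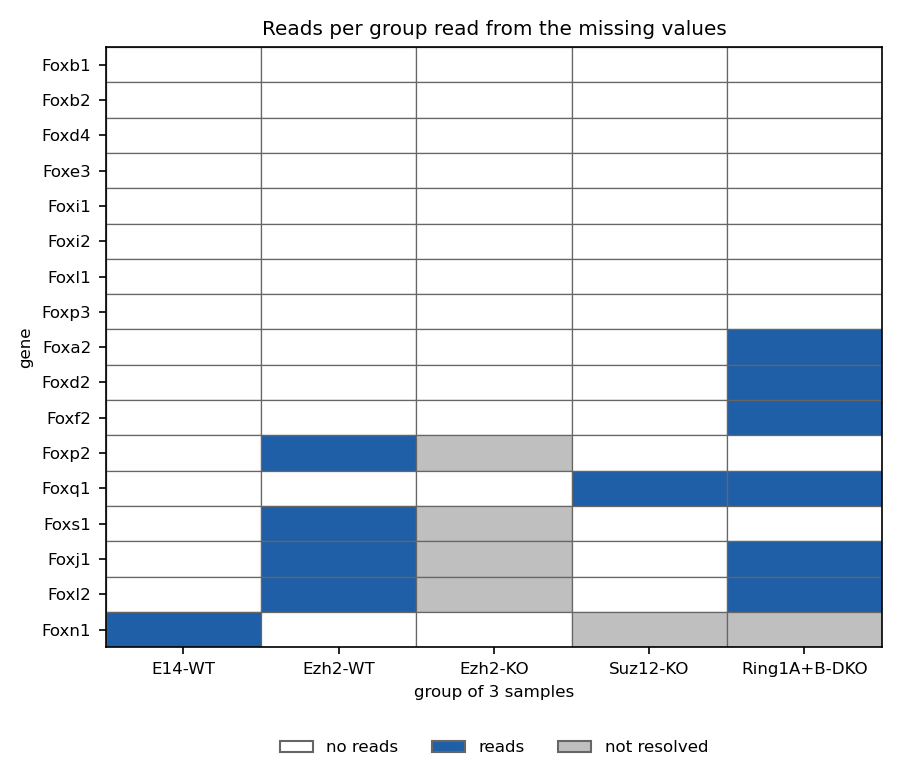
Rows are 17 forkhead genes that lack a value in at least 1 comparison and columns are the 5 groups of 3 samples. A blue cell stands for reads in the group, a white cell for no reads and a grey cell for a state that the missing values do not resolve; 6 of the 17 genes have reads in Ring1A+B-DKO and 8 have none anywhere.

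Shared values mark the members with few reads. Many genes of the authors' deposited table have a fold change identical to that of others, as genes with the same few reads would. Foxf2 in Ring1A+B-DKO had the value of 655 other genes (0.15), and Foxl2 that of 355 (0.18). Both had no reads in E14-WT, yet their values are small and finite, so a value from few reads is not a plain ratio. Sizes of members with few and with many reads are therefore not directly comparable. Foxp2 and Foxs1 had identical values (-0.10 in Ezh2-KO and 0.13 between the wild-type lines), shared with 309 and 258 other genes. Of the members with a value, 8 of 34 shared it with another gene in Ring1A+B-DKO, 14 of 31 between the wild-type lines, 12 of 30 in Ezh2-KO and 11 of 29 in Suz12-KO. Shared values are the least certain of the family. They lay between -0.30 (Foxf1) and 0.34 (Foxj1) in Ezh2-KO and between -0.55 (Foxd1) and 0.23 (Foxf1) in Ezh2-WT over E14-WT, and the lowest in Suz12-KO was -0.49 (Foxd1).

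**Figure D2:**
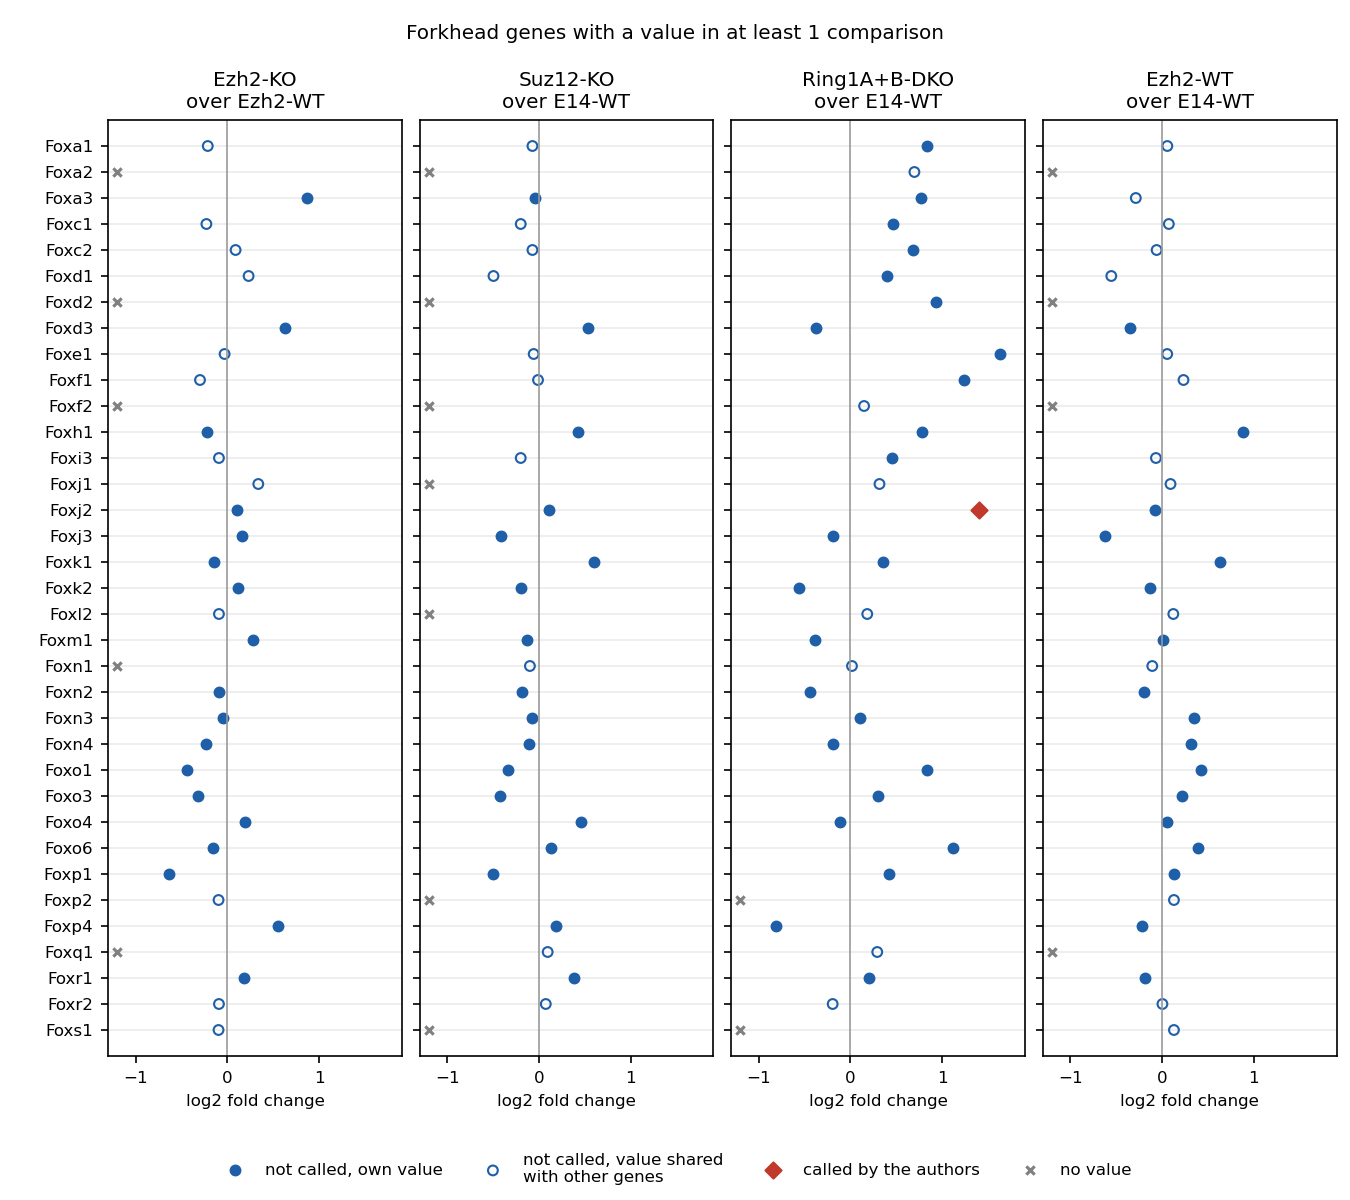
Each row is 1 of 35 forkhead genes with a value and each panel 1 comparison, with the log2 fold change of the named group over its control on the horizontal axis. Filled circles are values of that gene alone, open circles values shared with other genes, the red diamond the 1 called gene (Foxj2 at 1.40 in Ring1A+B-DKO), and grey crosses at the left edge mark missing values.

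The members in cells without PRC1's ligases were read from Ring1A+B-DKO over E14-WT. A difference between these lines is not told apart from the deletion there. According to the authors' deposited table, 1 forkhead gene rose, Foxj2, and 0 fell, out of 34 with a value. Over all 19693 genes with a value, 2.38% rose and 0.620% fell, 3.00% in all, so a share of 1 in 34 is near the background. Most members lay above 0. Of the 34, 25 were above 0 (73.5%, beside 55.4% of all genes), with a median log2 fold change of 0.33 beside 0.07 for all genes. Of the 25, 7 had no reads in E14-WT and so could have no other sign. Of the 27 members not shown to lack reads in E14-WT, 18 were above 0 (66.7%, beside 49.7% of such genes) and their median was 0.35 beside -0.0019.

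Foxj2 (ENSMUSG00000003154, chromosome 6, 122819914 to 122845366) is a forkhead activator with 11 exons in the transcript with its longest coding sequence. In the authors' deposited table it stood at a log2 fold change of 1.40 in Ring1A+B-DKO. It stayed near 0 elsewhere, at 0.10 in Ezh2-KO, 0.11 in Suz12-KO and -0.07 in Ezh2-WT over E14-WT. The other members of its letter were lower and not called. Foxj1 stood at 0.32 and Foxj3, with 13 exons, at -0.19. A non-coding gene on the other strand, Gm26826, starts 0.7 kb into Foxj2 and had no value in any comparison.

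A log2 fold change of at least 1 was reached by 5 of 34 members in Ring1A+B-DKO, and Foxj2 was the only one called. Foxe1 (ENSMUSG00000070990, chromosome 4, 46343609 to 46346412), the thyroid factor, had the highest value of the family, 1.63, beside -0.03 in Ezh2-KO, -0.06 in Suz12-KO and 0.06 in Ezh2-WT. The antisense gene Gm12446 overlaps it and stood at 0.03 in Ring1A+B-DKO. Foxf1 (ENSMUSG00000042812, chromosome 8, 121084386 to 121088144), a factor of lung and gut mesenchyme, stood at 1.24, beside -0.30 in Ezh2-KO, -0.01 in Suz12-KO and 0.23 in Ezh2-WT. The FoxO factor Foxo6 (ENSMUSG00000052135, chromosome 4, 120267079 to 120287349) stood at 1.11, beside -0.16 in Ezh2-KO, 0.13 in Suz12-KO and 0.39 in Ezh2-WT. Outside Ring1A+B-DKO these 3 genes thus stayed under 0.5 either way, and there the values of Foxe1 and Foxf1 were shared with other genes. The 5 members are 14.7% of 34, beside 8.10% of all genes and 9.67% of protein-coding genes at that size in either direction. All 5 were higher, beside 6.73% of all genes. At 0.5 it was 14 members (41.2%, beside 27.9% of all genes and 31.8% of protein-coding genes), 12 higher and 2 lower. Over all genes, 1326 reached 1 or more and 469 of them were called (35.4%), so an uncalled value of this size is common.

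**Figure D3:**
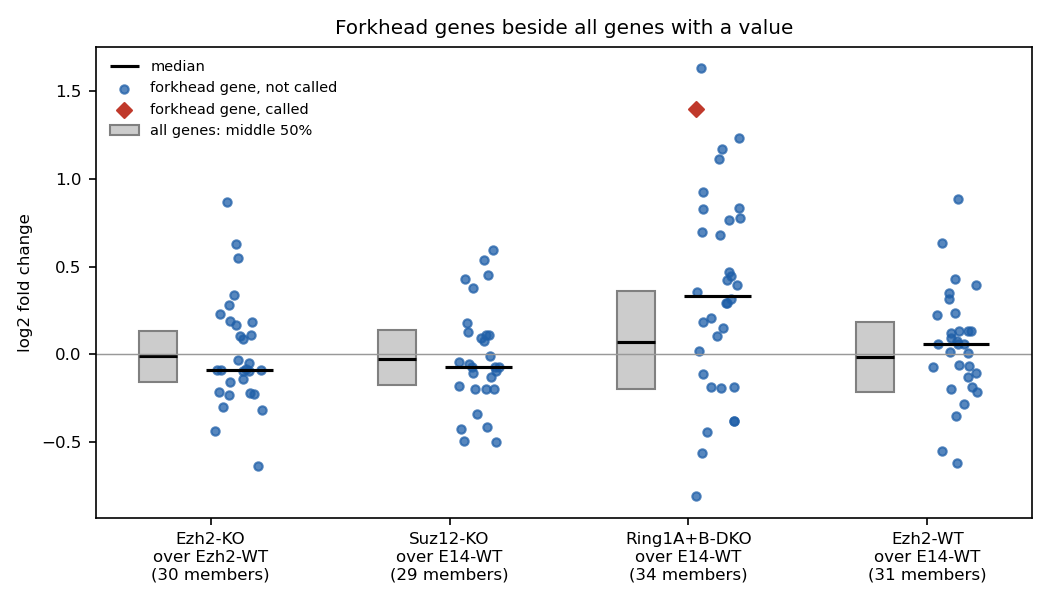
For each comparison the grey bar gives the middle 50% of log2 fold changes over all genes and the points are the forkhead genes, with black lines at the medians. In Ring1A+B-DKO the forkhead median is 0.33 beside 0.07 for all genes, while the other 3 forkhead medians lie between -0.09 and 0.06; the red diamond is Foxj2.

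Members of the A, C, D, F, I, L and Q letters had 0 calls by the authors' deposited table in Ring1A+B-DKO, beside 3.00% of all genes. With so few members, 0 calls at that share says little. All 3 Foxa genes, which open chromatin for endoderm and liver programmes, stood above 0, Foxa1 at 0.83, Foxa3 at 0.77 and Foxa2 at 0.70. Foxa2 had no reads in E14-WT, so it could have no other sign, and it shared its value with 9 other genes. The 9 endoderm markers with a value were also above 0 there, 3 of them without reads in E14-WT, with a median of 1.29. The part of these markers in the Foxa values was not tested. Foxc1 and Foxc2, regulators of mesenchyme and vessels, stood at 0.47 and 0.68. Of the D subfamily, the kidney stroma factor Foxd1 stood at 0.40 and Foxd2 at 0.93. Foxd3 stood apart from them at -0.38. Foxf2, Foxi3 (an ear and branchial arch factor) and Foxq1 stood at 0.15, 0.45 and 0.29. Foxl2, at 0.18, shared its value with other genes, as did Foxf2, Foxq1 and, of the N letter, Foxn1, at 0.02. Foxd2, Foxf2, Foxl2 and Foxq1 had no reads in E14-WT and so could have no other sign.

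Members of the letters J, K, M, N, O and P, a grouping made after their values were seen, spread more evenly about 0 in Ring1A+B-DKO. Of 16 with a value, 9 stood above 0 with a median of 0.06, against 16 of 18 and a median of 0.58 for all other letters. Members without reads in E14-WT could only stand above 0, such as Foxj1 of the first set. Foxa2, Foxd2, Foxf2, Foxl2 and Foxq1 of the other letters are such members. All 14 members whose coding transcript has a single exon belong to the other letters. The lowest value of the family was that of Foxp4, a factor of lung and heart (ENSMUSG00000023991, chromosome 17, 47867133 to 47924645), at -0.81, beside 0.55 in Ezh2-KO, 0.18 in Suz12-KO and -0.22 in Ezh2-WT. The glycolysis regulator Foxk2 stood at -0.56, Foxn2 at -0.45 and Foxm1, which drives genes of mitosis, at -0.38. Foxo4 (-0.12) and Foxn4 (-0.19) were closer to 0. On the other side were Foxo1 at 0.84, Foxp1 at 0.42, Foxk1 at 0.35, Foxo3 at 0.29 and Foxn3 at 0.11. Within the O and P letters, the paralogues thus lay on both sides of 0.

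Ezh2-KO over Ezh2-WT shows the members after loss of the PRC2 methyltransferase. The authors' deposited table had 0 calls among the 30 members with a value, beside 0.177% of all genes called, a background at which 0 calls says little. It gives no p-value by which weaker changes could be counted. Of the 30, 12 stood above 0 (beside 47.8% of all genes) and 18 below, and the median was -0.09, beside -0.01 for all genes. The direction of this median did not hold: it was 0.027 over the 18 members whose value is not shared, and the mean over all 30 was 0.0074. Foxa3 was highest at 0.87, beside -0.04 in Suz12-KO and -0.29 in Ezh2-WT, with Foxd3 (0.63) and Foxp4 (0.55) next. Foxp1 was lowest at -0.64, followed by Foxo1 at -0.44. An absolute value of at least 0.5 was reached by 4 members (13.3%, beside 8.35% of all genes and 9.6% of protein-coding genes). One of at least 1 was reached by 0 (beside 0.674% of all genes).

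In Suz12-KO over E14-WT, without the other PRC2 subunit studied, again 0 members were called in the authors' deposited table. Here 29 members had a value, and 0.200% of all genes were called. The median was -0.07, beside -0.03 for all genes, with 11 members above 0 (beside 46.4% of all genes) and 18 below. Foxk1 stood highest at 0.59 and Foxd3 second at 0.54. Foxp1 was lowest at -0.50, next to Foxd1 at -0.49, a value Foxd1 shared with other genes. Only Foxk1, Foxd3 and Foxp1 reached 0.5 either way (10.3%, beside 9.14% of all genes and 10.5% of protein-coding genes). A size of 1 was reached by 0 (beside 0.822% of all genes).

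The 2 PRC2 knockouts share no samples, and 26 members had a value in both in the authors' deposited table. Of these, 16 had the same sign (61.5%, beside 58.9% of all genes), which is near the background. Among members with values of their own in both, Foxd3 had the largest smaller value, at 0.63 in Ezh2-KO and 0.54 in Suz12-KO. Foxd3 (ENSMUSG00000067261, chromosome 4, 99656299 to 99658622) is needed to maintain the epiblast and neural crest. Foxp1 (ENSMUSG00000030067, chromosome 6, 98925338 to 99522721), which regulates B cell and heart development, was its counterpart on the low side at -0.64 and -0.50, and stood at 0.13 in Ezh2-WT over E14-WT. The stress and insulin response factors Foxo1 (ENSMUSG00000044167, chromosome 3, 52268336 to 52353221) and Foxo3 (ENSMUSG00000048756, chromosome 10, 42181841 to 42276755) followed. Foxo1 stood at -0.44 and -0.34, and Foxo3 at -0.32 and -0.43. In Ezh2-WT over E14-WT Foxd3 stood at -0.35, Foxo1 at 0.43 and Foxo3 at 0.22. For these genes and Foxp1 that sign is opposite to the sign in the PRC2 knockouts. The wild-type comparison shares the Ezh2-WT samples with Ezh2-KO and E14-WT with Suz12-KO. None of these 4 was called. In Ring1A+B-DKO Foxd3 stood at -0.38, Foxp1 at 0.42, Foxo1 at 0.84 and Foxo3 at 0.29, and the difference from the PRC2 knockouts was not tested. Suz12-KO and Ring1A+B-DKO share E14-WT. Between Ezh2-KO and Ring1A+B-DKO, which share no samples, 9 of 28 members had the same sign (32.1%, beside 46.2% of all genes).

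The wild-type lines show how far forkhead genes differ with no Polycomb gene deleted. The authors' deposited table has 0 of 31 members called in Ezh2-WT over E14-WT, beside 0.607% of all genes. The median was 0.06, beside -0.02 for all genes, and 19 members were above 0, beside 48.2% of all genes. Of the 19, 4 had no reads in E14-WT and so could have no other sign. Without them 15 of 27 were above 0 (55.6%, beside 44.7% of such genes) and the median was 0.011, beside -0.052. At 0.5 there were 4 members (12.9%, beside 16.5% of all genes and 19.2% of protein-coding genes) and at 1 there were 0 (beside 2.32% of all genes). Foxh1 (ENSMUSG00000033837, chromosome 15, 76668225 to 76669948), the partner of Smad2 in Nodal signalling, was highest at 0.88. Foxk1 stood at 0.63, Foxj3, a relative of Foxj2, was lowest at -0.62, and Foxd1 had a shared value of -0.55. The range between these wild-type lines, from -0.62 to 0.88, is close to that in Ezh2-KO, from -0.64 to 0.87, which shares the Ezh2-WT samples. Foxj3 stood at 0.16 in Ezh2-KO and -0.41 in Suz12-KO. Foxh1 stood at 0.78 in Ring1A+B-DKO, 0.43 in Suz12-KO and -0.22 in Ezh2-KO. Foxk1 stood at 0.35 in Ring1A+B-DKO, 0.59 in Suz12-KO and -0.14 in Ezh2-KO. The first 2 values of each gene share E14-WT with the wild-type comparison, and the last shares Ezh2-WT. Foxn2 was the only member below 0 in all 4 comparisons, at -0.45 in Ring1A+B-DKO, -0.20 in Ezh2-WT, -0.18 in Suz12-KO and -0.09 in Ezh2-KO, and no member was above 0 in all 4. The comparisons share controls, as stated. Foxr1 and Foxr2, little studied members, stayed between -0.19 and 0.38 throughout.

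Genes beside the members were read next, since reads of overlapping genes may be divided or, without strand, mixed. Of the 44 members, 18 overlap another annotated gene of the table, 10 of them one on the opposite strand. Foxl2os, a non-coding gene (ENSMUSG00000097072) that starts 11 bases from Foxl2 on the other strand, was called in Ring1A+B-DKO by the authors' deposited table and rose there, at 1.68, while Foxl2 stood at 0.18. Foxd2os starts 384 bases from Foxd2 and stood at 0.99 in Ring1A+B-DKO, uncalled, beside 0.93 for Foxd2. Both non-coding genes were near 0 in Ezh2-KO, at -0.09 and -0.07. Sympk, 839 bases from the start of Foxa3, stood at 0.01, beside 0.77 for Foxa3. Rhno1, whose start is 56 bases from that of Foxm1, stood at 0.50 in Ring1A+B-DKO, beside -0.38 for Foxm1. Fendrr, the lung and heart non-coding gene beside Foxf1, had no value in any comparison. Foxq1 overlaps A530084C06Rik on the other strand over 3200 identical bases, so its values (0.29 in Ring1A+B-DKO, beside 0.64) are uncertain. Foxp1 overlaps the protein-coding Gm20696 on the same strand, with 288 identical bases, so the values of Foxp1 are uncertain too. Gm20696 stood at -0.33 in Ezh2-KO, -0.10 in Suz12-KO and -0.29 in Ring1A+B-DKO, and was not called.

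Forkhead genes of different letters lie in small clusters. Foxf1, Foxc2 and Foxl1 lie on chromosome 8 with gaps of 28.0 and 9.0 kb, and the authors' deposited table has 1.24, 0.68 and no value for them in Ring1A+B-DKO. Foxq1 and Foxf2 lie on chromosome 13 with a gap of 64.8 kb, and Foxc1 175.2 kb further on; they stood at 0.29, 0.15 and 0.47. Foxd2 and Foxe3 lie 16.3 kb apart on chromosome 4, at 0.93 and no value. Foxd2, Foxq1 and Foxf2 had no reads in E14-WT and so could have no other sign. Of all members with a value in Ring1A+B-DKO, 73.5% stood above 0, beside 55.4% of all genes. Of the 3 clusters, 2 hold a member without reads.

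Around Foxj2 itself, genes within 300 kb were examined after its value had been seen. This stretch holds Nanog, Gdf3 and Dppa3, genes of pluripotent cells. The authors' deposited table has a Ring1A+B-DKO value for 13 of its genes, of which Foxj2 and Dppa3 (4.19) rose and 0 fell. Over all genes 2.38% rose and 0.620% fell, and Foxj2 is called here by the choice of the stretch. Dppa3, which also rose in Suz12-KO, at 1.54, starts at -193.5 kb from the start of Foxj2. The genes between and next to them were not called. Nanog stood at -0.26, the glucose transporter gene Slc2a3 at -0.11 and Necap1, on the far side, at -0.31. Gdf3 stood at -1.06. The values did not form a run of higher genes along the stretch.

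**Figure D4:**
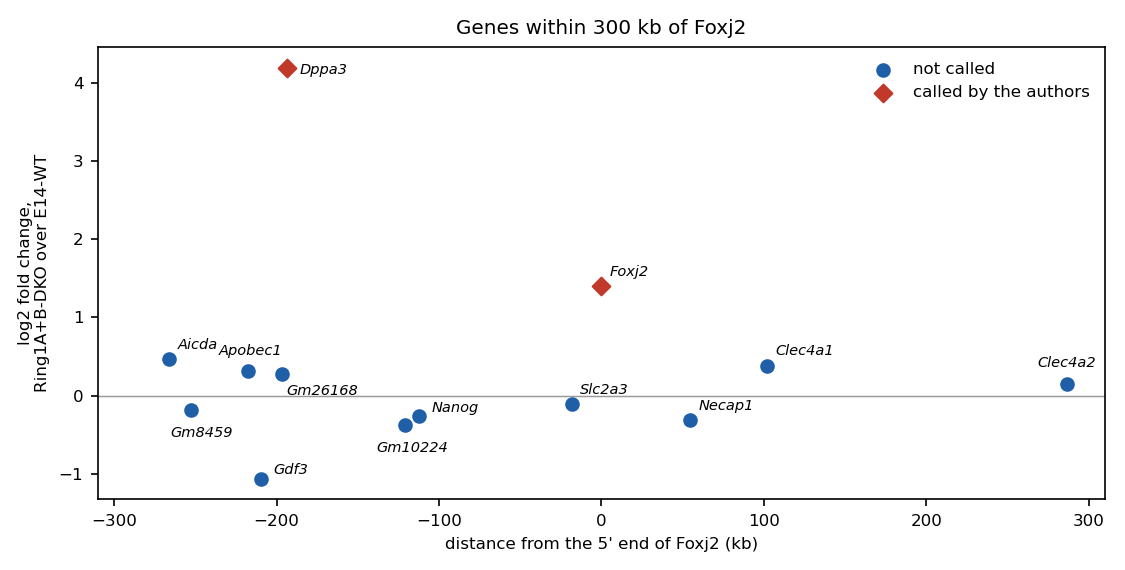
Points are the 13 genes within 300 kb of Foxj2 with a value, by distance of their 5' end from that of Foxj2 in kb and by log2 fold change in Ring1A+B-DKO over E14-WT. Red diamonds mark the called genes Foxj2 (1.40) and Dppa3 (4.19); the 11 others lie between -1.06 and 0.46.

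Other genes of the pathways in which forkhead factors act were read from lists of textbook members. In the Nodal pathway, where Foxh1 acts with Smad2, 14 genes had values in every comparison of the authors' deposited table. The Nodal antagonist Lefty2 rose in Suz12-KO, at 1.31. Lefty1 fell in Ring1A+B-DKO, at -1.77, and in Ezh2-WT over E14-WT, at -1.72. The list medians lay between -0.19 and 0.25. Of the 14 insulin, PI3K and AKT genes that act upstream of FoxO factors, Irs1 rose in Ring1A+B-DKO, at 1.82. Irs1 encodes an adaptor of the insulin receptor. The FoxO kinase gene Sgk1 rose in Ezh2-KO, at 1.06, and fell in Ezh2-WT over E14-WT, at -1.52, with the Ezh2-WT samples in both comparisons.

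Targets of forkhead factors were read from the authors' deposited table, in which 0.177% to 3.00% of all genes were called, so that 0 calls in a list of this size says little. Of 16 FoxO targets 0 were called in any comparison, with medians of -0.01 in Ring1A+B-DKO, 0.18 between the wild-type lines, -0.21 in Ezh2-KO and -0.16 in Suz12-KO. The 14 Foxm1 targets, genes of mitosis, also had 0 calls. In Ring1A+B-DKO 11 of these 14 stood below 0 (median -0.23), as did Foxm1 itself. In Ezh2-KO 11 of 14 stood above 0 (median 0.24), where Foxm1 stood at 0.28. In Suz12-KO 11 of 14 also stood above 0 (median 0.12), where Foxm1 stood at -0.13. Between the wild-type lines 12 of 14 stood below 0 (median -0.45) with Foxm1 at 0.01. The last comparison has Ezh2-WT over its control and Ezh2-KO is set against the same Ezh2-WT samples, so opposite signs in the pair are not independent. Of 14 Foxa and endoderm targets, 9 had a value in Ring1A+B-DKO and 2 rose, Gata4 and Gata6, with a median of 0.42. Both are also on the endoderm marker list. Liver genes of that list such as Alb and Ttr had no value there. Of 15 Foxj1 targets in motile cilia, 0 were called in any comparison, with a median of 0.38 over 10 genes in Ring1A+B-DKO.

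**Figure D5:**
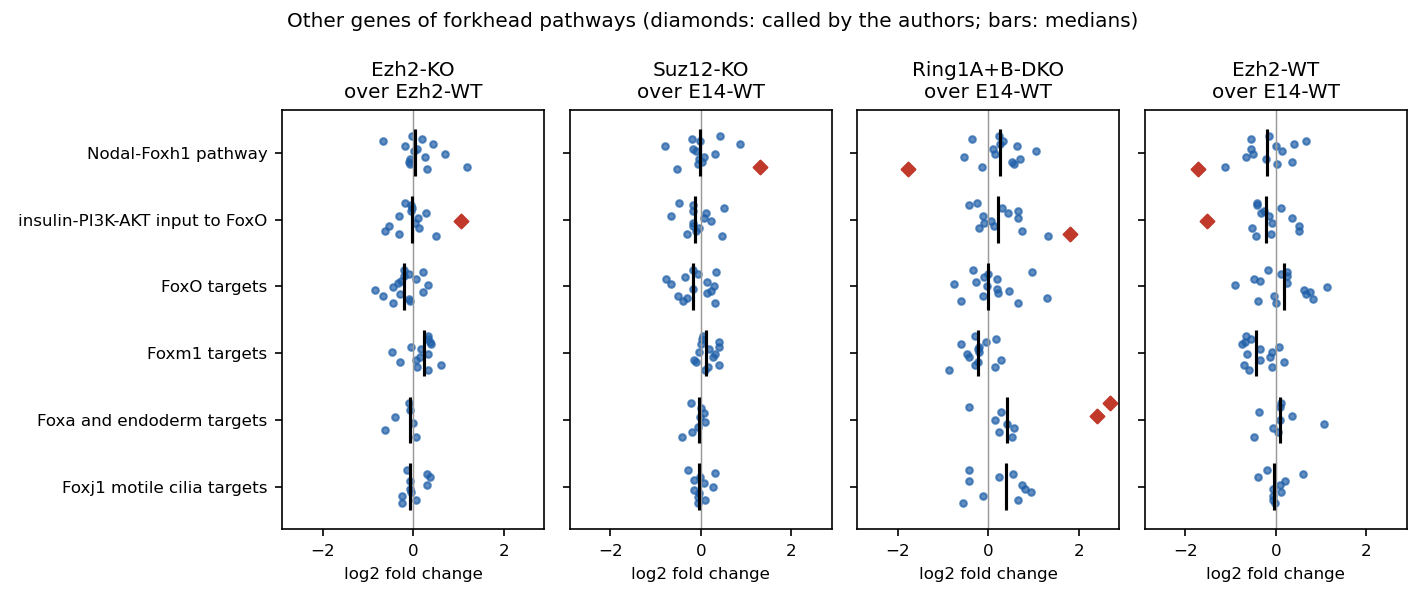
Each panel is 1 comparison and each row 1 list of genes around forkhead factors, with log2 fold changes as points, medians as black bars and called genes as red diamonds. The Foxm1 targets lie mostly above 0 in Ezh2-KO (median 0.24) and Suz12-KO (0.12) and mostly below 0 in Ring1A+B-DKO (-0.23), as they do in Ezh2-WT over E14-WT (-0.45), with 0 of 14 called in each.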

How the data were processed

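The 15 samples were mouse embryonic stem cells in 5 groups of 3 replicates, which the series' design text calls biological. Reads were processed with TopHat, featureCounts and DESeq2 on GRCm38 (mm10), per the submitters' processing notes, and the file headers name Ensembl release 72 for the genes. Total RNA was depleted of small and ribosomal RNA, per the labels' protocols. For versions, filters and the use of strand, the entry is: not given in the sources used here. The authors deposited 1 table of log2 fold changes and true or false calls for 4 comparisons, with no values per sample, so no test could be run and the authors' call stands in its place. GENCODE mouse release 21 gave symbols and coordinates and matched 36602 identifiers (95.4%).

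The direction of each column was read from genes without reads in the control. In Ezh2-KO 922 of 922 were positive, and in the 3 columns against E14-WT 1064, 2259 and 1170 were all negative, so those signs were turned. Missing values were taken to mean that neither group had reads, and 13 of 16 patterns of missing values were seen. On simulated tables of 5000 genes, in which a missing value was made to mean no reads, the sign was recovered for 80 of 80 columns. Under that setting the sign could not come out otherwise, so the simulation checks only the code. That reading of missing values is itself an assumption and was not tested. The members and lists were chosen with earlier results of these data known.

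Every member is counted, and the values of 1 member are not reported here. Full values were given for members that were called, reached 1 in size on the log2 scale, stood at an extreme of a comparison or kept 1 sign throughout. The split by letters, the Foxj2 stretch, the printed windows and further members named were chosen after their values were seen. Neighbours overlap a member or start within 5 kb of it. Near-identical copies are genes that blastn 2.17.0 aligned at 95% identity over at least 100 bases and 50% of the shorter transcript. Sequences are RefSeq's, of GRCm38.p6. Python 3.11.15, numpy 2.4.6, pandas 2.3.3 and matplotlib 3.10.9 were used. The sizes 0.5, 1 and 1.5, centring on all genes, the mean, the header signs and subsets of members were tried as alternatives. The count test foreseen for count tables was not possible on log2 fold changes.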

Additional observations from a re-analysis of the deposited data

How the results depend on the processing

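Counts of members depend on whether the authors' call is required. By a size of 1 on the log2 scale alone there were 5 members in Ring1A+B-DKO in place of 1, and 0 in each of the 3 other comparisons. At 0.5 there were 14 in Ring1A+B-DKO, 3 in Suz12-KO, 4 in Ezh2-KO and 4 between the wild-type lines. With calls of at least 1.5 there were 0 in Ring1A+B-DKO. Between the wild-type lines the median was 0.011 without members that had no reads in E14-WT. The small median of Ezh2-KO changed sign, to 0.027 over members whose value is not shared and to 0.0074 as a mean. With the sign of the headers the medians would be -0.33 in Ring1A+B-DKO, 0.071 in Suz12-KO and -0.057 between the wild-type lines. In Ring1A+B-DKO the median stayed between 0.27 and 0.41 under the other alternatives, including members with a value in all 4 comparisons (0.37), a choice made after seeing the data. No paired analysis was possible because the table holds no values per sample; leaving out replicates, edgeR and a filter on low counts were not run for that reason. Copies at the identity used were found for Foxn3, Foxo1, Foxp1, Foxp2, Foxp3 and Foxq1. For Foxo1, Foxp1, Foxp3 and Foxq1 they include a gene that overlaps the member at the same place in the genome. The values of these members are less certain, and Foxp3 had no value. Depth per sample is unknown, so what it limits could not be measured.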
